A study of Mus musculus with 6 samples.

Results

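Interferon-stimulated genes are the genes that cells switch on when interferon binds its receptor. A list of 42 of them, 30 known mainly as targets of type I interferon and 12 known mainly as targets of interferon gamma, was looked up by gene symbol among the 18749 gene rows of the aortic count data. A row was found for 41 genes, 29 of the type I class and all 12 of the gamma-induced class. Mx2 had no row and was not analysed here. The genes were looked up by name, but the list was chosen with earlier results of these data known. All 41 genes with a row passed the filter on low counts.

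The libraries were made from whole aortas of mice without apolipoprotein E (Apoe-/-). Control recipients carried Apoe-/- bone marrow, and Sept2C111A recipients carried Apoe-/-Sept2C111A bone marrow, with 3 libraries in each group. Every mouse in both groups had received angiotensin II (Ang II) by infusion for 28 days, so no group without Ang II and none with working Apoe stands beside them. The altered septin-2 was introduced through the transplanted marrow, while cells of the aorta that did not come from that marrow kept the host genotype. The comparison asks how transcripts of the aorta differ when the marrow carries the altered septin-2. The labels give neither the age nor the sex of the mice, nor the share of blood cells that came from the donor. The design text states 3 per group, and nothing else says whether the libraries came from separate mice. Any p-value therefore measures the spread between these libraries.

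Expected counts summed to between 17082719 and 20494928 per library, and 16747 to 17074 genes were detected. Levels are in counts-per-million units (CPM), relative to the total over all rows of a library. Smooth muscle markers were present in all 6 libraries, with Myh11 at 704 to 4692 CPM and Acta2 at 2576 to 8861 CPM, lowest in control 3. Control 1 and control 3 stood apart from the other libraries in markers of blood cells or of the vessel wall: the summed level of 6 neutrophil markers was 2816 CPM in control 1, 88.0 CPM in control 2, 322 CPM in control 3 and 14.8 to 28.8 CPM in the Sept2C111A libraries.

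Type I interferons, the alpha and beta interferons and their relatives, bind the receptor built from Ifnar1 and Ifnar2. The kinases Jak1 and Tyk2 then phosphorylate Stat2, which takes part with Irf9 in the complex ISGF3. ISGF3 binds the interferon-stimulated response element (ISRE) in the promoters of antiviral genes. Interferon gamma, made mainly by T cells and natural killer cells, binds the receptor of Ifngr1 and Ifngr2, signals through Jak1 and Jak2 and acts on promoters through the gamma-activated site (GAS). The programmes overlap, and many genes answer to both kinds of interferon. In the arterial wall, macrophages, endothelial cells and smooth muscle cells can all respond.

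The promoters of 4 members are shown as examples of the element of each class. In each class they are the 2 genes of smallest p among those whose window holds that element. Each line gives the 250 bases before the transcript start from RefSeq (GRCm38.p6), 5′ to 3′ on the strand of the gene. Capitals mark the ISRE letters, GAAA and GAAA with 2 free bases between them, for Oas1a and Oas3, and the GAS letters TTCNNNGAA for Gbp5 and Gbp7. The windows lie at chr5:120907526-120907775 (minus strand) for Oas1a, at chr5:120777660-120777909 (minus strand) for Oas3, at chr3:142496684-142496933 (plus strand) for Gbp5 and at chr3:142530086-142530335 (plus strand) for Gbp7.
Oas1a: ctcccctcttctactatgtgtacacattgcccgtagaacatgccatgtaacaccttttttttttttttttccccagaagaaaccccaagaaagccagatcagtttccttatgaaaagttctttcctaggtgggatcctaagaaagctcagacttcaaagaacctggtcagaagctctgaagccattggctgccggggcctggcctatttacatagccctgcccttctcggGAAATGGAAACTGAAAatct
Oas3: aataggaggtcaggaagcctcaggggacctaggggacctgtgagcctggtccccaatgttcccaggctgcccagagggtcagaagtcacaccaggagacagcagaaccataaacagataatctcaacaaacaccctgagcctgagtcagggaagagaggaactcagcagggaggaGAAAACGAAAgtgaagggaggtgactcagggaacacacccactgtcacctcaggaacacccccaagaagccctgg
Gbp5: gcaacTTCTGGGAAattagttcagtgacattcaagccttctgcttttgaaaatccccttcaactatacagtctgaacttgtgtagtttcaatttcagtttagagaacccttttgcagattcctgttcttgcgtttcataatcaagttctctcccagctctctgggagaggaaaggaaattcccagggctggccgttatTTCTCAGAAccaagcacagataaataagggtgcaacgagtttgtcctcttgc
Gbp7: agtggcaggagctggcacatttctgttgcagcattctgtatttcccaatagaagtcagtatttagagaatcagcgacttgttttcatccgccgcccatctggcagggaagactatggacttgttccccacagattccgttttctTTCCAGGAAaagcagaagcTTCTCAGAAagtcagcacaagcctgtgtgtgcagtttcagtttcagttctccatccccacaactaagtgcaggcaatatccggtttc
Oas1a held 2 overlapping ISRE matches that begin 20 and 14 bases before the start, and Oas3 held 1 that begins 75 bases before it. In Gbp5 the GAS matches begin 245 and 52 bases before the start, and in Gbp7 they begin 106 and 87 bases before it. The sequence of Oas1a also holds a GAS match and those of Gbp5 and Gbp7 each an ISRE match, which are left in lower case.

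Both motifs were searched, with any base at the free places, on both strands in windows of 300 bases, 250 before the start and 50 from it on. A window was found for 34 of the 42 members. The ISRE letters were in 10 of 22 type I members (45.5%) and in 7 of 12 gamma-induced members (58.3%), against 3.99% of 27025 genes in the promoter table. The GAS letters were in 5 of 22 type I members (22.7%) and in 4 of 12 gamma-induced members (33.3%), against 9.55% of those genes. The match of Bst2 to GAS overlapped its match to ISRE. A match describes letters only and does not show that a factor binds there. The share with ISRE letters was thus not higher in the type I class than in the gamma-induced class, and their difference was not tested.

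None of the 41 members was called between the groups by edgeR at adjusted p under 0.05, and neither was any other gene tested (0.0%). DESeq2 also called no member, against 3.97% of all genes. Control 1 held the highest level of 24 of 29 type I members, against 21.5% of all genes. All 5 genes of the oligoadenylate synthetase family were among the 24. Sept2C111A 1 held the highest level of 5 of 12 gamma-induced members, more than any other library, against 10.8% of all genes. The median log2 difference, Sept2C111A minus control, was -0.22 over the 29 type I members and 0.01 over the 12 gamma-induced members, against 0.00 over all 14466 genes tested. A value below 0 was found for 23 of 29 type I members and 5 of 12 gamma-induced members, against 49.9% of all genes. The gap between the class medians, -0.23, has no test, since genes are not replicates.

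edgeR's quasi-likelihood test with Benjamini-Hochberg adjustment called 0 of 41 members at adjusted p under 0.05, and 0 of all 14466 genes (0.0%). At an unadjusted p under 0.05 it gave 2 members, Oas1a and Oas3, both lower in Sept2C111A recipients, against 15.0% of all genes. DESeq2 also called 0 members, with a smallest adjusted p of 0.125, while it called 3.97% of all genes. Its unadjusted p was under 0.05 for 5 members, Oas1a, Oas3, Trim25, Dhx58 and Rsad2, against 18.6% of all genes. At the unadjusted threshold, the share of members was thus below that of all genes with either tool.

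The 3 libraries of the groups did not overlap for 3 members, Oas1a, Oas3 and Dhx58, all lower in Sept2C111A recipients, and overlapped for the other 38. Of all genes, 22.6% did not overlap, 11.4% being higher and 11.2% lower. Single libraries moved this count, to 10 without control 1 (33.9% of all genes), to 12 without control 2 (40.1%), to 8 without Sept2C111A 1 (28.7%) and to 8 without Sept2C111A 2 (39.4%). With control 2 left out, DESeq2 called 4 members, namely Ifit2, higher in Sept2C111A recipients, and Oas1a, Oas3 and Trim25, lower, against 12.0% of genes. With control 3 left out it called Oas3, against 2.26%. It called no member without control 1 or Sept2C111A 1, 2 or 3, against 2.28%, 1.69%, 4.51% and 0.905% of genes. The number of members at an unadjusted edgeR p under 0.05 was 4, 10 and 2 without controls 1, 2 and 3, against 12.8%, 20.5% and 11.2% of genes. It was 3, 3 and 0 without Sept2C111A 1, 2 and 3, against 7.73%, 13.5% and 5.98%.

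**Figure D1:**
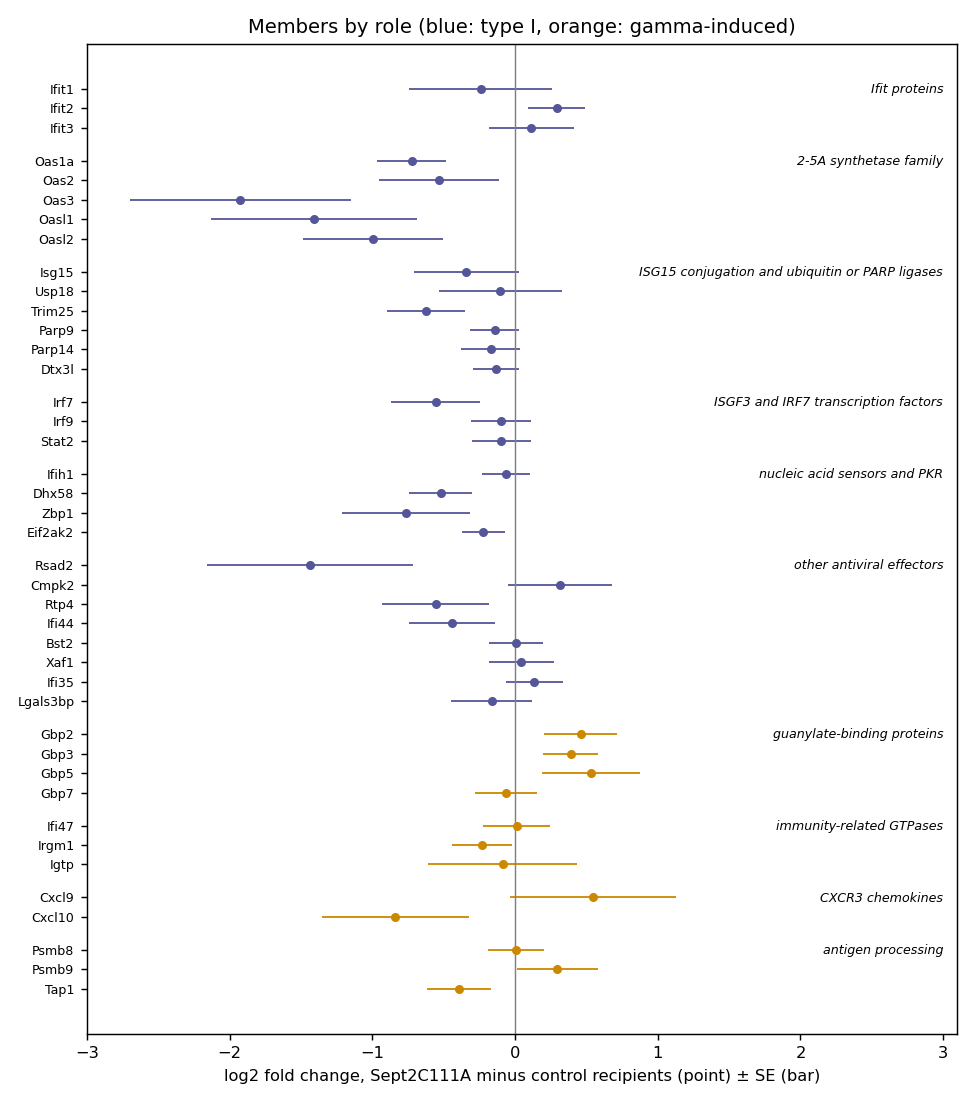
Log2 difference in level of each of the 41 members, Sept2C111A minus control recipients (point), with its SE (bar), ordered by role; blue marks type I members and orange gamma-induced members. All 5 genes of the oligoadenylate synthetase family lie to the left of 0, Oas3 furthest, and 3 of 4 guanylate-binding proteins lie to the right.

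The classes differed in which library held their highest level. Of the 29 type I members, 24 were highest in control 1, 3 in control 3 and 2 in Sept2C111A 1. Of the 12 gamma-induced members, 3 were highest in control 1, 3 in control 3, 5 in Sept2C111A 1 and 1 in Sept2C111A 3. Over all genes tested, 21.5% were highest in control 1, 23.6% in control 3, 10.8% in Sept2C111A 1 and 29.5% in Sept2C111A 3. No member was highest in control 2 or Sept2C111A 2, where 6.14% and 8.39% of all genes were. At the low end, 12 type I members were lowest in Sept2C111A 3 and 9 in Sept2C111A 2, against 13.0% and 18.6% of all genes. Gamma-induced members were lowest in control 2 for 4 genes and in Sept2C111A 2 for 4 genes, against 6.71% and 18.6%. No member was lowest in Sept2C111A 1, against 8.08% of all genes.

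**Figure D2:**
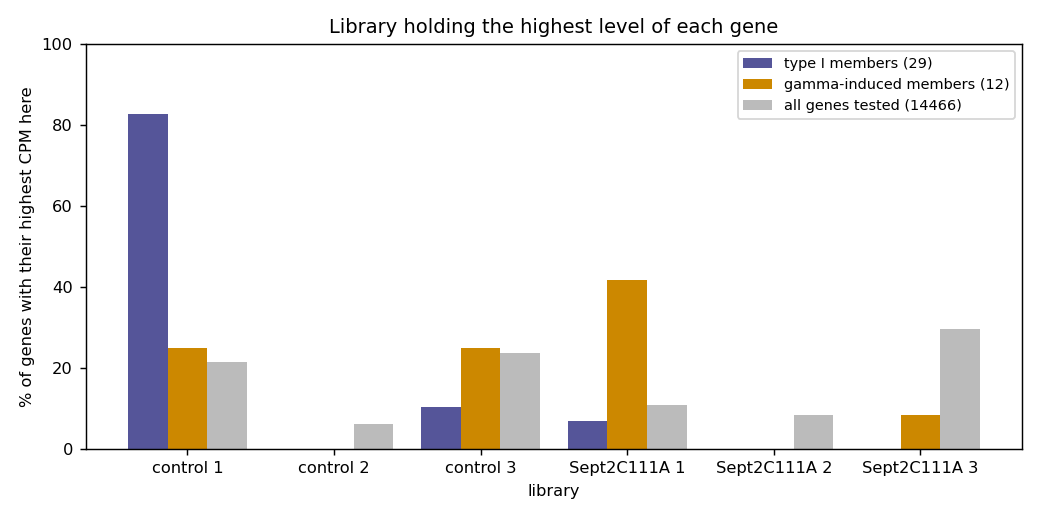
Share of genes whose highest CPM fell in each of the 6 libraries, for type I members, gamma-induced members and all genes tested. Control 1 held the highest level of 24 of 29 type I members, and Sept2C111A 1 that of 5 of 12 gamma-induced members.

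As a level per library, the mean over members of log2(CPM + 0.5) was taken relative to each gene's mean over the 6 libraries. The type I class stood at 0.63 in control 1, -0.20 in control 2 and -0.06 in control 3, and at 0.07, -0.18 and -0.27 in the Sept2C111A libraries 1, 2 and 3. Leaving aside control 1, the other 5 libraries lay within a narrow band and the groups overlapped. The gamma-induced class stood at 0.25, -0.35 and -0.05 in the controls and at 0.40, -0.33 and 0.09 in the Sept2C111A libraries. Each group held a high and a low library. The groups overlapped, with Sept2C111A 1 above every control.

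Type I minus gamma-induced levels were 0.38, 0.15 and -0.00 in the controls and -0.33, 0.15 and -0.36 in the Sept2C111A libraries. Sept2C111A 2 lay level with control 2, and the other Sept2C111A libraries lay below every control. In summed levels, the type I members came to 1280, 787 and 921.5 CPM in the controls and to 964.5, 785 and 774 CPM in the Sept2C111A libraries. The gamma-induced members came to 315, 215 and 269.9 CPM and to 340.6, 219 and 293 CPM.

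**Figure D3:**
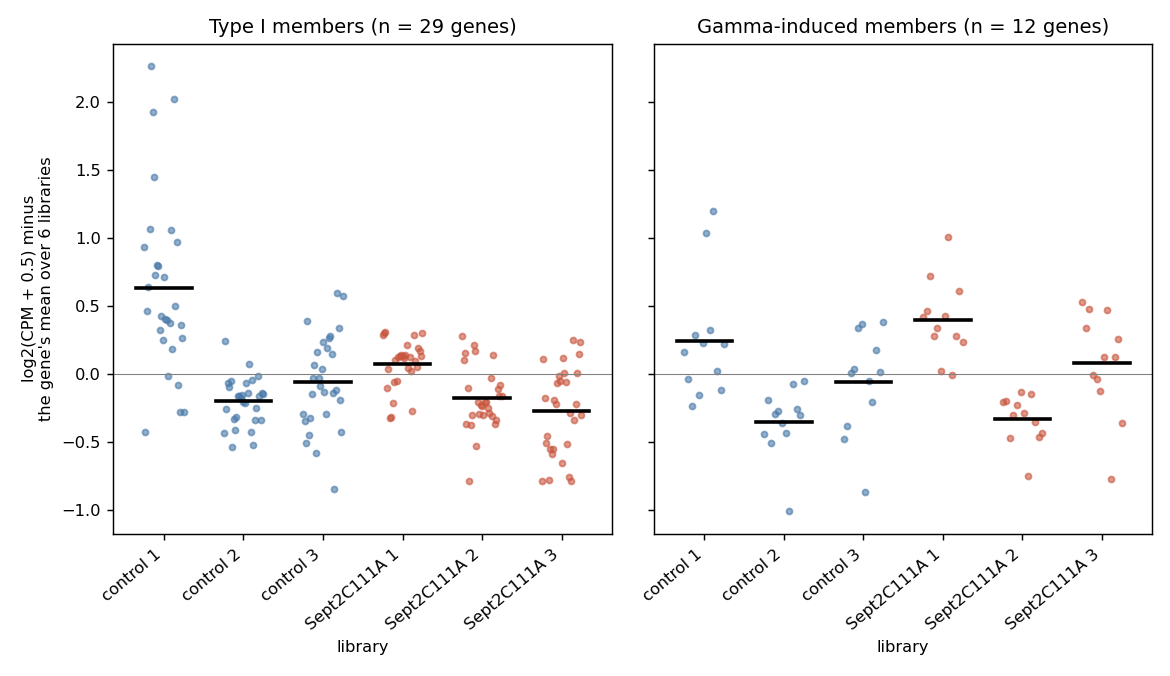
Level of each member in each library, as log2(CPM + 0.5) minus the gene's mean over 6 libraries; points are genes and black lines class means. The type I line stands at 0.63 in control 1 and between -0.27 and 0.07 in the other libraries, while the gamma-induced line is highest in Sept2C111A 1, at 0.40.

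Control 1 decided the size of the type I median. Without it the median was -0.02 over type I members, 0.22 over gamma-induced members and 0.03 over all genes. The gap between the classes was -0.24 without control 1 and ranged from -0.415 to -0.164 with each library left out in turn. The gamma-induced median changed sign, at -0.12 without control 2 and -0.14 without Sept2C111A 1. It was also larger without control 3 (0.17) and without Sept2C111A 2 (0.13).

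**Figure D4:**
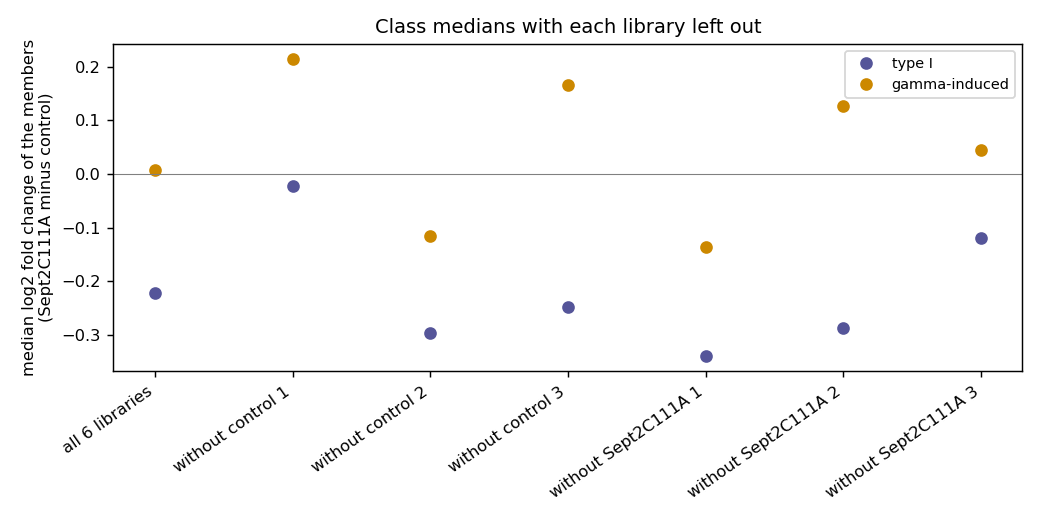
Median log2 difference, Sept2C111A minus control, over type I and gamma-induced members with all 6 libraries and with each left out. The type I median ran from -0.34 to -0.02 and lay below the gamma-induced median, which ran from -0.14 to 0.22, in each of the 7 fits.

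Markers of neutrophils, B cells and erythroid cells were also highest in control 1, while none of the tested T cell or natural killer cell markers was. The mean log2 level of the 2 tested natural killer cell markers was highest in control 1, at 0.56, against 0.41 in Sept2C111A 1. Cd3e, a T cell marker listed but not tested, was also highest in control 1. Siglech, the only plasmacytoid dendritic cell marker tested, was lowest in control 1, while Pacsin1, listed but not tested, was highest there. All 5 neutrophil markers that were tested had their highest level in control 1, where S100a8 stood at 631 CPM. Ly6g, which defines neutrophils, was listed at 0 in control 2 and in all 3 Sept2C111A libraries. All 4 B cell markers were also highest in control 1, with summed levels of 8.34 to 27.8 CPM in controls and 1.87 to 7.18 CPM in Sept2C111A recipients. All 5 erythroid markers were highest in control 1 too, and control 2 was lowest in all 5. Macrophage markers did not follow this order, since 6 of 8 were lowest in control 1 and their sums ran from 1610 to 3917 CPM in controls and from 1909 to 2886 CPM in Sept2C111A recipients. In whole tissue, fewer cells of a type and less RNA per cell cannot be told apart. Their part in the type I levels was not tested.

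For the gamma-induced class, markers of T cells and natural killer cells, the main makers of interferon gamma, were low in all libraries. T cell markers had summed levels of 5.79 to 11.7 CPM in controls and 3.59 to 17.8 CPM in Sept2C111A recipients, the highest in Sept2C111A 1 and the lowest in Sept2C111A 2. Of the 4 T cell markers tested, 2 were highest in control 3 and 2 in Sept2C111A 1, and all 4 were lowest in Sept2C111A 2. Cd4, at 12.5 CPM, made up most of the sum in Sept2C111A 1. Natural killer cell markers summed to 2.05 to 3.82 CPM and to 1.01 to 4.89 CPM. Of the 2 that were tested, Klrb1c was highest in control 3 and Gzma in Sept2C111A 1. Endothelial markers summed to 532 to 928 CPM and to 462 to 1166 CPM, with 3 of 4 lowest in Sept2C111A 2. Adipocyte markers were highest in Sept2C111A 1 for 3 of 4 genes. The part of these cells in the gamma-induced levels was not tested.

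Among type I members, the oligoadenylate synthetase family had the most negative median, -0.99, with 5 of 5 members below 0. Active enzymes of this family sense double-stranded RNA and make the messenger that activates RNase L, while the related Oasl1 restrains translation of Irf7. All 5 genes lie on chromosome 5. Without control 1 the median was -0.20. All 5 had their highest level in control 1.

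Oas1a (chr5:120896256-120907521, mm10) stood at 27.3, 16.5 and 22.9 CPM in controls and at 16.1, 13.3 and 12.0 CPM in Sept2C111A recipients. The groups did not overlap, though control 2 and Sept2C111A 1 nearly met. On the log2 scale the groups differed by -0.72 ± 0.24 (SE), with an edgeR adjusted p of 0.316, and -0.53 without control 1. Its transcripts shared 57.6% of their 50-base stretches with Oas1g, so reads may be divided between them and its single value is uncertain. Oas1g itself stood at 4.25 to 5.24 CPM in controls and 3.12 to 5.65 CPM in Sept2C111A recipients, with overlap.

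Oas3 (chr5:120753098-120777661) stood at 29.0, 5.44 and 4.43 CPM in controls and at 4.42, 3.07 and 3.09 CPM in Sept2C111A recipients. Control 1 was 5.33 times the next highest library, and control 3 lay only just above Sept2C111A 1. This gave a log2 difference of -1.93 ± 0.78 (edgeR adjusted p = 0.331), and -0.50 without control 1.

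Oasl2 (chr5:114896936-114912234) stood at 121, 34.9 and 43.3 CPM in controls and at 38.1, 35.7 and 29.2 CPM in Sept2C111A recipients. Control 1 alone stood out, and control 2 lay among the Sept2C111A libraries. The log2 difference was -0.99 ± 0.49 (edgeR adjusted p = 0.37), and -0.20 without control 1. Oasl1 showed the same shape, with 20.9 CPM in control 1 and 3.34 to 4.59 CPM in the other 5 libraries. Oas2 had 67.0 CPM in control 1 and 23.1 to 32.6 CPM elsewhere.

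The Ifit proteins bind viral RNA that lacks the cap modifications of the host, and their genes lie together on chromosome 19. Their median was 0.11, and 0.38 without control 1. Ifit3 (chr19:34583531-34588731) stood at 50.4, 30.3 and 25.5 CPM in controls and at 45.2, 40.5 and 32.1 CPM in Sept2C111A recipients. Control 1 was the highest library and the other controls were the lowest. On the log2 scale the groups differed by 0.11 ± 0.30 (edgeR adjusted p = 0.861), and -0.08 without control 3. Ifit3 shared 51.2% of its 50-base stretches with Ifit3b, so its value is uncertain, and Ifit3b had 21.8 CPM in control 1 and 5.66 to 13.0 CPM in the other libraries.

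Ifit2, the member of the family that shared no such stretch, went against the class. It stood at 21.7, 34.7 and 22.8 CPM in controls and at 36.1, 31.4 and 31.6 CPM in Sept2C111A recipients, and control 1 was its lowest library. Ifit1 stood at 27.4 CPM in control 1 and at 7.98 to 17.3 CPM elsewhere. The 3 neighbours therefore ordered the libraries differently although their starts lie within 90177 bases.

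Isg15 is a ubiquitin-like protein that is conjugated to other proteins, Usp18 removes it and also restrains the type I receptor, and Trim25 is a ligase that aids RNA sensing through Rigi. Parp9 and Dtx3l form a complex of an ADP-ribosyltransferase and a ubiquitin ligase, and Parp14 is a related transferase. All 6 were highest in control 1 and below 0 in log2 difference, with a median of -0.16, and of 0.04 without control 1. Trim25 (chr11:88999376-89020293) had the smallest p of the group. It stood at 107, 54.8 and 68.5 CPM in controls and at 59.2, 42.4 and 52.7 CPM in Sept2C111A recipients, so that control 2 lay between Sept2C111A libraries. This gave a log2 difference of -0.62 ± 0.27 (edgeR adjusted p = 0.348), and -0.28 without control 1.

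Isg15 stood at 27.5, 12.2 and 17.3 CPM in controls and at 15.8, 19.2 and 11.1 CPM in Sept2C111A recipients, with full overlap. Usp18 was at 13.4 CPM in control 1 and at 4.83 to 8.49 CPM elsewhere, where the Sept2C111A libraries were above the other controls. Parp9 and Dtx3l, which start 681 bases apart on opposite strands, ran together. Parp9 stood at 35.5 to 49.7 CPM in controls and 34.5 to 43.3 CPM in Sept2C111A recipients. Dtx3l stood at 25.7 to 34.1 and 24.4 to 31.6 CPM. The genes overlap at their starts, and the strand setting of the counting is not given in the sources used here, so reads in the overlap cannot be told apart.

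Stat2 and Irf9 are parts of ISGF3, and Irf7 drives the later wave of interferon alpha genes. All 3 were highest in control 1, and their median was -0.10, and 0.14 without that library. Stat2 (chr10:128270559-128292849) stood at 78.0, 56.5 and 48.2 CPM in controls and at 65.1, 51.2 and 59.5 CPM in Sept2C111A recipients. The groups overlapped, and the log2 difference of -0.10 ± 0.21 (edgeR adjusted p = 0.829) became 0.14 without control 1. Irf7 stood at 46.7, 24.5 and 33.3 CPM in controls and at 31.1, 24.0 and 17.9 CPM in Sept2C111A recipients, a log2 difference of -0.56 ± 0.31 with overlap.

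The sensors Ifih1, which recognises long double-stranded RNA, Dhx58, which regulates it, and Zbp1, which recognises Z-form nucleic acid and can start necroptosis, were grouped with the kinase PKR, encoded by Eif2ak2. All 4 were below 0 in log2 difference, with a median of -0.37, and of -0.21 without control 1. Dhx58 (chr11:100694884-100704271) stood at 15.2, 12.2 and 14.1 CPM in controls and at 11.9, 9.66 and 7.96 CPM in Sept2C111A recipients. The groups did not overlap, and control 1 was only 1.08 times the next highest library. The log2 difference was -0.52 ± 0.22 (edgeR adjusted p = 0.34), and -0.43 without control 1. Among the members with separate groups it is the one whose difference moved least when control 1 was left out.

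Eif2ak2 (chr17:78852564-78882573) stood at 59.9, 51.0 and 58.3 CPM in controls and at 53.6, 51.8 and 43.2 CPM in Sept2C111A recipients. The groups overlapped through control 2, and the log2 difference was -0.22 ± 0.15 (edgeR adjusted p = 0.477). Zbp1 had 21.7 CPM in control 1 and 5.80 to 12.4 CPM elsewhere. Ifih1 ran from 18.3 to 23.2 CPM in controls and from 17.5 to 23.6 CPM in Sept2C111A recipients, and it was the only 1 of the 4 not highest in control 1.

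The other antiviral effectors split evenly, with 4 of 8 below 0 and a median of -0.08. Per length, the highest of all members over the 6 libraries was Lgals3bp, a secreted glycoprotein, at 47.8 CPM per kilobase. It was followed by Bst2 (tetherin, which holds budding virus at the cell surface) at 41.7, Isg15 at 22.7 and Ifit3 at 21.4 CPM per kilobase, and Ifi44 was the lowest at 0.653. Lgals3bp (chr11:118392751-118402092) stood at 109, 119.5 and 198 CPM in controls and at 164, 119 and 108 CPM in Sept2C111A recipients. Control 3 was its highest library and control 1 was near its lowest, unlike most of the class. On the log2 scale the groups differed by -0.16 ± 0.28 (edgeR adjusted p = 0.785), and 0.15 without control 3. Bst2 also peaked in control 3, at 47.3 CPM, and was lowest in control 1, at 30.6 CPM.

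Rsad2 (viperin) and Cmpk2, which supplies its nucleotide substrate, start 12752 bases apart on chromosome 12 and ordered the libraries differently. Rsad2 stood at 53.6, 8.81 and 11.6 CPM in controls and at 10.6, 10.3 and 7.26 CPM in Sept2C111A recipients. Control 1 was 4.62 times the next highest library, and the other 5 overlapped. Cmpk2 stood at 16.9, 9.29 and 6.39 CPM in controls and at 14.6, 13.1 and 14.2 CPM in Sept2C111A recipients. Without control 1 the log2 difference was -0.13 for Rsad2 and 0.81 for Cmpk2, against -1.44 ± 0.72 and 0.32 ± 0.36 with all libraries.

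Control 1 stood more than 1.5 times above the next highest library for 10 of 29 type I members and for 2 of 12 gamma-induced members, against 6.0% of all genes. The ratios among type I members were 5.33 for Oas3, 4.62 for Rsad2, 4.56 for Oasl1, 2.80 for Oasl2, 2.06 for Oas2, 1.85 for Rtp4, 1.74 for Zbp1, 1.58 for Ifit1, 1.58 for Usp18 and 1.56 for Trim25. The 3 highest ratios belonged to the synthetase family and viperin. The gamma-induced genes were Cxcl10, at 2.46, and Igtp, at 1.54.

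Among gamma-induced members, the guanylate-binding proteins had the highest median, 0.42, and 0.52 without control 1. These large GTPases coat and break the vacuoles of intracellular microbes and help activate inflammasomes. They lie together on chromosome 3. Gbp3 (chr3:142560026-142573209) stood at 25.5, 22.8 and 19.9 CPM in controls and at 36.3, 22.7 and 33.1 CPM in Sept2C111A recipients. Sept2C111A 1 and 3 were above every control, and Sept2C111A 2 lay among the controls. This gave a log2 difference of 0.39 ± 0.19 (edgeR adjusted p = 0.37).

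Gbp2 (chr3:142620602-142638008) stood at 47.7, 31.1 and 30.3 CPM in controls and at 57.1, 36.8 and 61.4 CPM in Sept2C111A recipients. Again only Sept2C111A 2 fell below the highest control. The log2 difference was 0.46 ± 0.25 (edgeR adjusted p = 0.404), and 0.73 without control 1. Gbp5 (chr3:142493978-142522344) stood at 7.16, 5.84 and 8.57 CPM in controls and at 14.3, 5.99 and 12.0 CPM in Sept2C111A recipients, in the same arrangement. For this gene the log2 difference was 0.53 ± 0.34 (edgeR adjusted p = 0.457). Gbp7, whose promoter is shown above beside that of Gbp5, stood at 33.0, 21.9 and 27.8 CPM in controls and at 32.9, 21.8 and 26.8 CPM in Sept2C111A recipients, so that its libraries matched in level from group to group. Gbp7 shared 12.7% of its 50-base stretches with other genes, and its value is less certain than those of the other 3.

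**Figure D5:**
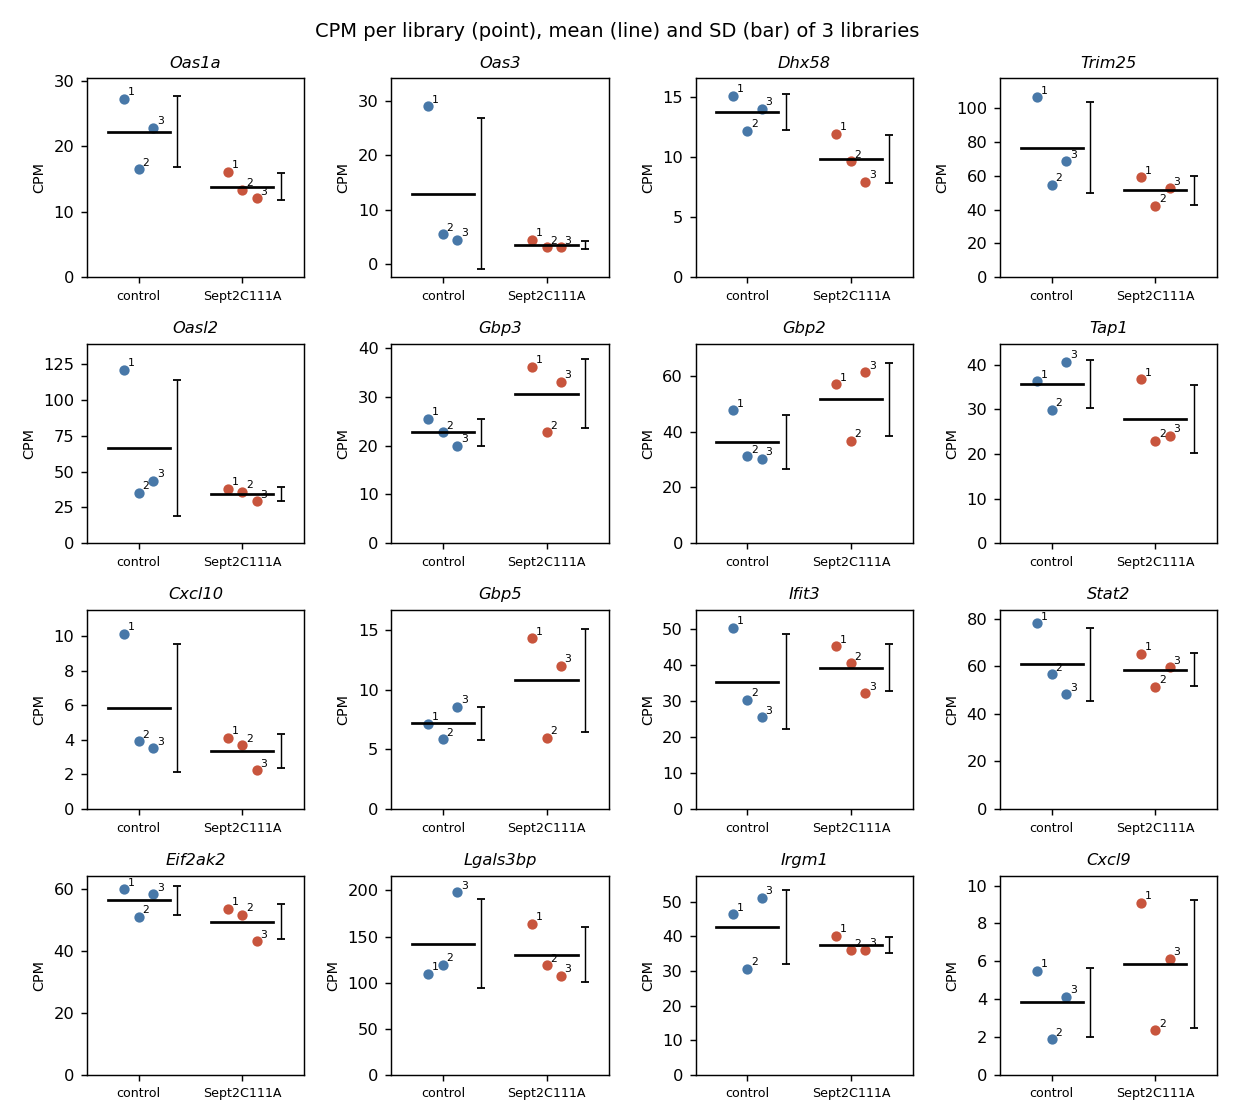
CPM of 16 members in each library (points, numbered by library), with the mean (line) and SD (bar) of 3 libraries per group. Control 1 stands far above the rest in Oas3, Oasl2 and Cxcl10, and Sept2C111A 2 stands below the other Sept2C111A libraries in Gbp2, Gbp3, Gbp5 and Cxcl9.

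The immunity-related GTPases, which act on the same vacuoles, had a median of -0.09. Irgm1 (chr11:48861968-48871683) stood at 46.3, 30.6 and 51.2 CPM in controls and at 40.1, 36.0 and 36.1 CPM in Sept2C111A recipients. The Sept2C111A libraries lay within the range of the controls, and the log2 difference was -0.23 ± 0.21 (edgeR adjusted p = 0.592). Igtp stood at 42.8, 15.1 and 11.1 CPM in controls and at 27.9, 16.9 and 22.5 CPM in Sept2C111A recipients, a log2 difference of -0.09 ± 0.52, and of 0.75 without control 1. Igtp shared 11.8% of its 50-base stretches with Irgm2, which overlaps it.

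Cxcl9 and Cxcl10 both attract T cells through the receptor Cxcr3 and start 20810 bases apart on chromosome 5. Cxcl9 (chr5:92321347-92328079) stood at 5.50, 1.88 and 4.13 CPM in controls and at 9.10, 2.35 and 6.13 CPM in Sept2C111A recipients. Its log2 difference was 0.55 ± 0.58 (edgeR adjusted p = 0.643), with overlap. Cxcl10 (chr5:92346638-92348889) stood at 10.1, 3.91 and 3.51 CPM in controls and at 4.12, 3.68 and 2.22 CPM in Sept2C111A recipients, and control 1 alone stood out. For this gene the log2 difference was -0.84 ± 0.51 (edgeR adjusted p = 0.437), and -0.16 without control 1, where that of Cxcl9 was 0.92. Cxcl9, which is induced chiefly by interferon gamma, was thus highest in Sept2C111A 1 and 3, as Gbp3 and Gbp5 were. Cxcl10, which type I interferon also induces, was highest in control 1, as most type I members were. The gamma-induced members Igtp and Gbp7 were highest there too, as were 21.5% of all genes. The part of either interferon in these orders was not tested. Both genes were thinly covered, the lowest library holding 35.6 expected counts for Cxcl9 and 38 for Cxcl10.

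The immunoproteasome subunits Psmb8 and Psmb9 and the peptide transporter Tap1 lie side by side on chromosome 17, and Tap1 and Psmb9 start 211 bases apart on opposite strands. Tap1 (chr17:34187553-34197225) stood at 36.3, 30.0 and 40.7 CPM in controls and at 36.7, 22.9 and 24.1 CPM in Sept2C111A recipients. Its log2 difference was -0.39 ± 0.22 (edgeR adjusted p = 0.414). Psmb9 stood at 11.8, 10.3 and 13.0 CPM in controls and at 19.9, 9.18 and 15.5 CPM in Sept2C111A recipients, a log2 difference of 0.30 ± 0.28. The pair thus lay on opposite sides of 0, neither passing the test, and their gene models overlap on opposite strands. Psmb8 had a log2 difference of 0.01 ± 0.19. All 3 were lowest in Sept2C111A 2.

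Upstream of these genes, the ligands were at or under detection. Of 10 interferon genes listed, 4 had a row. Ifnb1 had 1 count in control 1 and 0 in the other libraries, and Ifng had 1 count in control 3, 4 counts in Sept2C111A 1 and 0 elsewhere. Ifna1 had 1 count in Sept2C111A 2, and Ifnk had none. A count of 0 allows a level of up to 0.146 to 0.176 CPM, depending on the library, for counting error only. Bead capture on oligo(dT) favours transcripts with a poly(A) tail, and no difference in any interferon could be detected at this depth. Ifng had its only level above that limit in Sept2C111A 1, on 4 counts. Gamma-induced members were highest most often in that library, and any link between them was not tested.

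The receptors and their kinases comprised 8 genes, of which 1 had an unadjusted p under 0.05, lower (8.83% of all genes were), and none was called by either tool. Ifnar1, a chain of the type I receptor, stood at 147, 104 and 121 CPM in controls and at 91.0, 86.8 and 80.7 CPM in Sept2C111A recipients. The groups did not overlap. On the log2 scale the groups differed by -0.56 ± 0.17 (edgeR adjusted p = 0.316), and -0.40 without control 1. Ifnar2, the other chain, stood at 74.4 to 91.3 CPM and at 61.4 to 82.3 CPM, with overlap and a log2 difference of -0.20 ± 0.15.

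Of the gamma receptor, Ifngr2 stood at 118, 107 and 126 CPM in controls and at 103, 90.9 and 62.5 CPM in Sept2C111A recipients, without overlap, with a log2 difference of -0.48 ± 0.22 (edgeR adjusted p = 0.355). Ifngr1 stood at 130.3 to 139.8 CPM and at 113 to 153 CPM, with a log2 difference of -0.03 ± 0.13 that was 0.01 on library totals. The kinase Jak2 had 261 CPM in control 1 and 54.3 to 75.9 CPM elsewhere, without overlap of the groups. For this gene the log2 difference was -1.26 ± 0.54, and -0.32 without control 1.

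Of the transcription factors outside the list, 5 genes were read, 1 of them with an unadjusted p under 0.05, Irf5, lower, as were 8.83% of all genes. Irf1, an early target of interferon gamma, stood at 57.6, 29.7 and 38.1 CPM in controls and at 53.2, 29.0 and 46.9 CPM in Sept2C111A recipients. It was thus high in control 1 and in Sept2C111A 1 alike, the libraries where type I and gamma-induced members were highest most often. Its log2 difference of -0.01 ± 0.31 was 0.32 without control 1 and 0.04 on library totals.

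Irf5, a factor of inflammatory macrophages and B cells, stood at 71.5, 25.1 and 33.3 CPM in controls and at 24.4, 16.7 and 19.9 CPM in Sept2C111A recipients, without overlap. Its log2 difference was -1.14 ± 0.41 (edgeR adjusted p = 0.316), and -0.54 without control 1. Irf8, which shapes monocytes and dendritic cells, stood at 28.9 to 48.1 CPM and at 17.0 to 34.7 CPM, with a log2 difference of -0.67 ± 0.32 and overlap.

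Of 9 sensors and adaptors, 2 had an unadjusted p under 0.05, both lower, against 8.83% of all genes that were lower. Tbk1, the kinase that activates Irf3, stood at 53.4, 48.5 and 49.9 CPM in controls and at 40.4, 38.1 and 41.6 CPM in Sept2C111A recipients. All 3 controls lay above all 3 Sept2C111A libraries, and no library stood apart. This gave a log2 difference of -0.38 ± 0.10 with an edgeR adjusted p of 0.316 and a DESeq2 adjusted p of 0.0372, and it was -0.31 without control 1. Cgas, the cytosolic DNA sensor, stood at 8.18, 6.55 and 7.28 CPM and at 5.86, 4.62 and 4.85 CPM, also without overlap, with a log2 difference of -0.56 ± 0.22 (edgeR adjusted p = 0.327).

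Among 7 brakes of the pathway, Socs3 and Samhd1 had an unadjusted p under 0.05, both lower, against 8.83% of all genes. Socs3, which also answers to other cytokines, stood at 312, 39.1 and 94.9 CPM in controls and at 53.6, 29.6 and 49.7 CPM in Sept2C111A recipients. The log2 difference was -1.81 ± 0.74 (edgeR adjusted p = 0.331), and -0.62 without control 1. Samhd1, which depletes nucleotides, stood at 193, 114 and 119 CPM and at 105, 89.1 and 91.3 CPM, without overlap, with a log2 difference of -0.62 ± 0.24 (edgeR adjusted p = 0.327).

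A further 26 type I-induced genes outside the list were tested. Their median log2 difference was -0.10, with 3 lower and 0 higher at an unadjusted p under 0.05, against 8.83% and 6.17% of all genes. Ifitm1, a membrane protein that blocks viral entry, stood at 56.2, 5.94 and 11.2 CPM in controls and at 1.93, 1.75 and 2.03 CPM in Sept2C111A recipients. The groups did not overlap, and the Sept2C111A libraries differed little among themselves. On the log2 scale the groups differed by -3.73 ± 0.90 with an edgeR adjusted p of 0.316 and a DESeq2 adjusted p of 0.000602, and -2.18 without control 1. Its relatives Ifitm2 and Ifitm3 had log2 differences of -0.08 ± 0.16 and -0.11 ± 0.16.

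Slfn1 stood at 301 CPM in control 1, which was 30.1 times control 3, the next highest library. Control 2 was at 5.54 CPM and the Sept2C111A libraries at 3.89, 2.40 and 2.58 CPM. This gave a log2 difference of -5.21 ± 1.68 (edgeR adjusted p = 0.316), and -1.41 without control 1. DESeq2 gave no p for Slfn1. The order of the libraries in Slfn1 and Ifitm1, control 1 above control 3, control 3 above control 2 and all controls above the Sept2C111A libraries, was that of the neutrophil markers S100a8 (631, 12.8 and 104 CPM in controls, 0.961 to 3.11 CPM in Sept2C111A recipients) and Cxcr2 (536, 8.24 and 27.9 CPM, and 2.94 to 3.75 CPM). These markers were taken from 6 listed, of which Ly6g was at 0 in control 2 and in all Sept2C111A libraries. Over all genes tested, 21.5% were highest in control 1 and 11.2% were lower in Sept2C111A recipients without overlap. Whether the transcripts of Slfn1 and Ifitm1 came from neutrophils was not tested.

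A further 21 gamma-induced genes were tested, with a median log2 difference of 0.24, 15 above 0 and 6 below. At an unadjusted p under 0.05, 1 was higher (6.17% of all genes were) and 0 were lower. Of the 21 genes, 12 were highest in Sept2C111A 1, 5 in Sept2C111A 3 and 4 in control 1, against 10.8%, 29.5% and 21.5% of all genes. The largest differences among these 21 genes were those of the guanylate-binding proteins Gbp4 and Gbp8. Gbp8 stood at 1.55, 1.47 and 1.10 CPM in controls and at 3.48, 1.59 and 3.06 CPM in Sept2C111A recipients, which did not overlap by a narrow margin. For this gene the log2 difference was 0.91 ± 0.37 (edgeR adjusted p = 0.331).

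Gbp4 stood at 5.81, 5.43 and 10.6 CPM in controls and at 15.9, 7.18 and 22.9 CPM in Sept2C111A recipients, with a log2 difference of 1.02 ± 0.46 (edgeR adjusted p = 0.351) and overlap. Genes of antigen presentation stood nearer to 0. B2m, the light chain of class I molecules, stood at 544, 663 and 652 CPM in controls and at 932, 643 and 700.0 CPM in Sept2C111A recipients, a log2 difference of 0.25 ± 0.21. H2-K1, a class I heavy chain, stood at 482, 436 and 465 CPM and at 679, 415 and 539.8 CPM, a log2 difference of 0.20 ± 0.21. In both genes Sept2C111A 1 was the highest library and Sept2C111A 2 lay within or below the range of the controls.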

How the data were processed

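RNA of whole aortas was enriched on oligo(dT) beads for 6 libraries, per the labels' protocols. Each library has 1 deposited file of expected counts per gene, which the authors estimated and did not normalise. Tools named in the submitters' processing notes are Bowtie2, RSEM 1.3.1 and DESeq2 1.4.5, with build mm10. Not given in the sources used here are the annotation, read filters and strand. Ambiguous reads are shared out by RSEM, so 34.6% to 35.9% of values were fractional. The column heading of the third Sept2C111A library carries another library number, and its GEO record was followed.

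Rounded counts were tested with edgeR 4.0.16 in R 4.3.3 (filterByExpr with minimum count 10, TMM, two-sided quasi-likelihood F test, group only, Benjamini-Hochberg over 14466 genes) and DESeq2 1.42.0. Each SE was derived as the absolute log2 difference divided by the square root of its F statistic. The code was tested on simulated data. CPM used totals of all rows, and class levels a pseudocount of 0.5 CPM. Coordinates are from GENCODE vM21 (mm10) and promoters from RefSeq (GRCm38.p6). Replicates differed by chi-square values per degree of freedom of 50.2 to 237, far beyond sampling noise, so none was a duplicate. Intervals from counts of 0 used 3 counts.

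Members, lists and naming rules were chosen with earlier results of these data known. Full values are given for the 5 members of smallest edgeR p in each class, the member of highest mean CPM in each of 10 role groups and the 2 genes of smallest p in each pathway list. Ifng, Ifnb1, both receptors and Irf1 were added, 1 further gene of the pathway is not reported here, and any other gene was chosen after its values were seen. Alternatives were other size factors, other count filters, DESeq2, the replicate number as a block and leaving out each library.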

Additional observations from a re-analysis of the deposited data

How the results depend on the processing

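No setting of edgeR called a gene: with all 6 libraries, RLE factors, library totals, no filter, a mean count of at least 50 or any 1 library left out, it called 0 genes and 0 members. DESeq2 called 575 genes and 0 members, and with 1 library left out it called 0 to 4 members, the most without control 2 and 1 without control 3. Members at an unadjusted p under 0.05 numbered 2 by edgeR and 5 by DESeq2, and 0 to 10 by edgeR with a library left out, with 4 without control 1, 10 without control 2 and 0 without Sept2C111A 3 (12.8%, 20.5% and 5.98% of genes). Members with separate groups numbered 3 (22.6% of all genes) with all libraries and up to 12 without control 2 (40.1%). The gap between class medians ran from -0.415 to -0.164, the type I median from -0.34 to -0.02 and the gamma-induced median from -0.14 to 0.22.

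The deviations of same-numbered libraries from their group means had correlations of 0.00548, 0.15 and -0.166, against -0.214 to 0.161 for the other pairs. With 3 libraries per group these values cannot decide whether libraries were paired. With the number as a replicate block, edgeR called 0 genes and 0 members, 2 members had an unadjusted p under 0.05, the class medians were -0.19 and 0.08 and their gap was -0.28. The block changed no call.

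Of 382 alternative values for 32 single genes, 370 kept direction and side of the threshold and 10 changed sign. DESeq2 fits with a library left out were not among the 382. On library totals the log2 difference was 0.0102 for Ifngr1 and 0.0423 for Irf1. That of Irf1 was 0.00298 without the filter and 0.0144 with the replicate block. With a library left out, it ran from -0.0755 to 0.483 for Ifit3, -0.112 to 0.0586 for Ifngr1, -0.21 to 0.32 for Irf1, -0.35 to 0.15 for Lgals3bp and -0.24 to 0.14 for Stat2. The cause was not tested. The other 2, Tbk1 and Ifitm1, passed the threshold in DESeq2 only, with log2 differences of -0.38 and -3.73. In the uncounted DESeq2 fits, the members Oas1a, Oas3 and Trim25 passed it without control 2, and Oas3 also without control 3. DESeq2 gave Slfn1 no p, so that this value was not counted. Depth limited the interferon genes, and Cxcl9 and Cxcl10 had few counts.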
